A study of Mus musculus with 16 samples.

Results

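A set of 32 genes that mark microglia and macrophages was followed through 16 RNA-seq libraries of oligodendrocyte precursor cells (OPCs) grown from mouse neural stem cells. The genes were listed by name, from what is known of these cells, and are 32 of the 55335 genes in the count files. They were divided by their known pattern into 4 microglia-enriched genes (P2ry12, Tmem119, Cx3cr1 and Fcrls), 5 genes typical of macrophages at the borders of the brain (Mrc1, Cd163, Pf4, Ms4a7 and Cd209f) and 23 genes shared by macrophages and microglia. The libraries form 4 groups of 4, each from cells on day 4 of monolayer culture and of a C57BL6J/129svEmx mixed strain: cells labelled RXRgKO with the thyroid hormone triiodothyronine (T3) for 24 h, cells labelled RXRgKO without T3, cells labelled WT with T3, and cells labelled WT without T3. RXRg is the retinoid X receptor gamma, a nuclear receptor made from the gene Rxrg. Each library was made from the polyadenylated RNA in 200 ng of total RNA, and held 18262279 to 42588442 reads counted in genes. The labels do not say how the RXRgKO allele was made, nor whether libraries within a group were grown from different cultures or mice. All p-values therefore describe spread between libraries, and that spread may be technical.

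Microglia are the resident macrophages of the brain parenchyma. They descend from yolk sac precursors and not from neural stem cells, and they depend on signalling through the receptor made from Csf1r and on the transcription factor PU.1, made from Spi1. In brain tissue they clear debris and dying cells through complement, Fc and TREM2-TYROBP receptors, and they prune synapses and take up myelin. Border macrophages of the meninges, perivascular spaces and choroid plexus share most of this machinery, but carry the mannose receptor and other scavenger receptors and make little P2ry12 and Tmem119.

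Promoters are shown for 5 members whose levels bear on the results below, 4 that hold the letters GAGGAA, the core that PU.1 is known to bind, or their reverse complement TTCCTC, and P2ry12, which holds neither. Each runs from 80 bases before to 20 after the RefSeq gene start (RefSeq, GRCm38.p6), is written 5′ to 3′ on the strand of its gene, and has the motif in capitals. P2ry12 lies at chr3:59262966-59263065 (minus strand), Cd53 at chr3:106790130-106790229 (minus), Laptm5 at chr4:130913236-130913335 (plus), C1qb at chr4:136886181-136886280 (minus) and Trem2 at chr17:48346321-48346420 (plus).
P2ry12: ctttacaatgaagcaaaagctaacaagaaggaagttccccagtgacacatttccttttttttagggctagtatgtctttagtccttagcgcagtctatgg
Cd53: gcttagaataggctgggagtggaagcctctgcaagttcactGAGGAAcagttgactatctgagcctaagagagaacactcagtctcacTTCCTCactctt
Laptm5: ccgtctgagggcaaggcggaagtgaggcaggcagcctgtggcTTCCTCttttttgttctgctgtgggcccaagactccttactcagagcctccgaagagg
C1qb: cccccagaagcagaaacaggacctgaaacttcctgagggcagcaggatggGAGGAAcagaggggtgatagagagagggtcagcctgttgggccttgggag
Trem2: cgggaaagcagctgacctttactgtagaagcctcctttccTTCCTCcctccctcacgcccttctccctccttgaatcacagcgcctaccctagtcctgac
Over the whole RefSeq window, from 250 bases before to 50 after the start, 15 of the 22 members with an entry held the motif on either strand, and 31.3% of the promoters of 27025 genes did. The match is a description of letters and not a site: Cd68 held it too, and a window without it says only that these letters are not in that window.

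Rxrg itself went against the labels. It was at 5.46, 4.89, 4.27 and 5.05 CPM (CPM, read counts scaled to library size with the trimmed mean of M-values) in the RXRgKO-labelled libraries with T3 and 4.83, 3.77, 4.6 and 3.79 CPM in those without, against 0.885, 0.96, 0.597 and 0.371 CPM in the WT-labelled libraries with T3 and 1.79, 1.48, 1.14 and 1.65 CPM in those without, so the groups are named here as labelled. Which part of Rxrg the allele removes is not given in the sources used here, and an exchange of labels, which would turn the direction of every difference between them, was not tested. Libraries of a group were not evenly alike. With Xist, the members and the other listed genes left out, pairs of libraries had a chi-square per gene of 1.498 to 2.112 within a set and 4.908 to 9.333 between sets, over genes with 20 to 500 counts in the pair. RXRgKO-labelled replicates 1 and 2 with T3 and 1 and 3 without had at most 3.75 CPM of Xist, the RNA of the inactive X chromosome, while replicates 3 and 4 with T3 and 2 and 4 without had 543 to 723 CPM. In the WT-labelled groups, replicate 1 stood apart from replicates 2 to 4. Over all genes, RXRgKO-labelled replicates 1 to 4 with T3 deviated from their group most like untreated replicates 3, 3, 4 and 4, which have the same Xist state. The Y-linked gene Ddx3y separated the same sets in both treatments: it was at 126 and 124 CPM with T3 and 115 and 118 CPM without in the libraries lacking Xist. In the libraries with Xist, Ddx3y was at 22.1 and 20.7 CPM with T3, against 52.9 and 51.2 CPM without, so its level in that set differed between treatments. The WT-labelled libraries other than replicate 1 held 68.1 to 78.3 CPM of Ddx3y with T3, against 13.9 to 15.8 CPM without. In both of these sets an effect of T3 and a difference between cultures cannot be told apart.

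The summed level of the microglia and macrophage members was higher in the RXRgKO-labelled libraries than in the WT-labelled ones. The 32 members summed to 128, 99.3, 23.9 and 26.9 CPM in the RXRgKO-labelled libraries with T3 and 118, 77.8, 146 and 81.9 CPM in those without, against 11.6, 13.8, 14.3 and 12.4 CPM in the WT-labelled libraries with T3 and 11.7, 13.2, 13.1 and 13.8 CPM in those without. All 8 RXRgKO-labelled sums therefore exceeded all 8 WT-labelled sums, and the RXRgKO-labelled libraries with both T3 and Xist (replicates 3 and 4) lay lowest among them. In bulk RNA, fewer cells that express the members and less member RNA per cell cannot be told apart, and which cells made this RNA was not tested. Per kilobase of exon, untreated RXRgKO-labelled cells had the highest levels for Lyz2, the macrophage lysozyme, at 13.8 CPM per kilobase, followed by Tyrobp at 5.46, C1qb at 4.82 and Fcrls at 3.62 CPM per kilobase. In the untreated WT-labelled cells the highest was Cd68, at 2.10 CPM per kilobase, followed by Cd14 at 0.649 CPM per kilobase, and the other 30 members were at 0.494 CPM per kilobase or less. Cd68 alone made up 16.1% to 26.5% of the summed member level in the WT-labelled libraries.

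**Figure D1:**
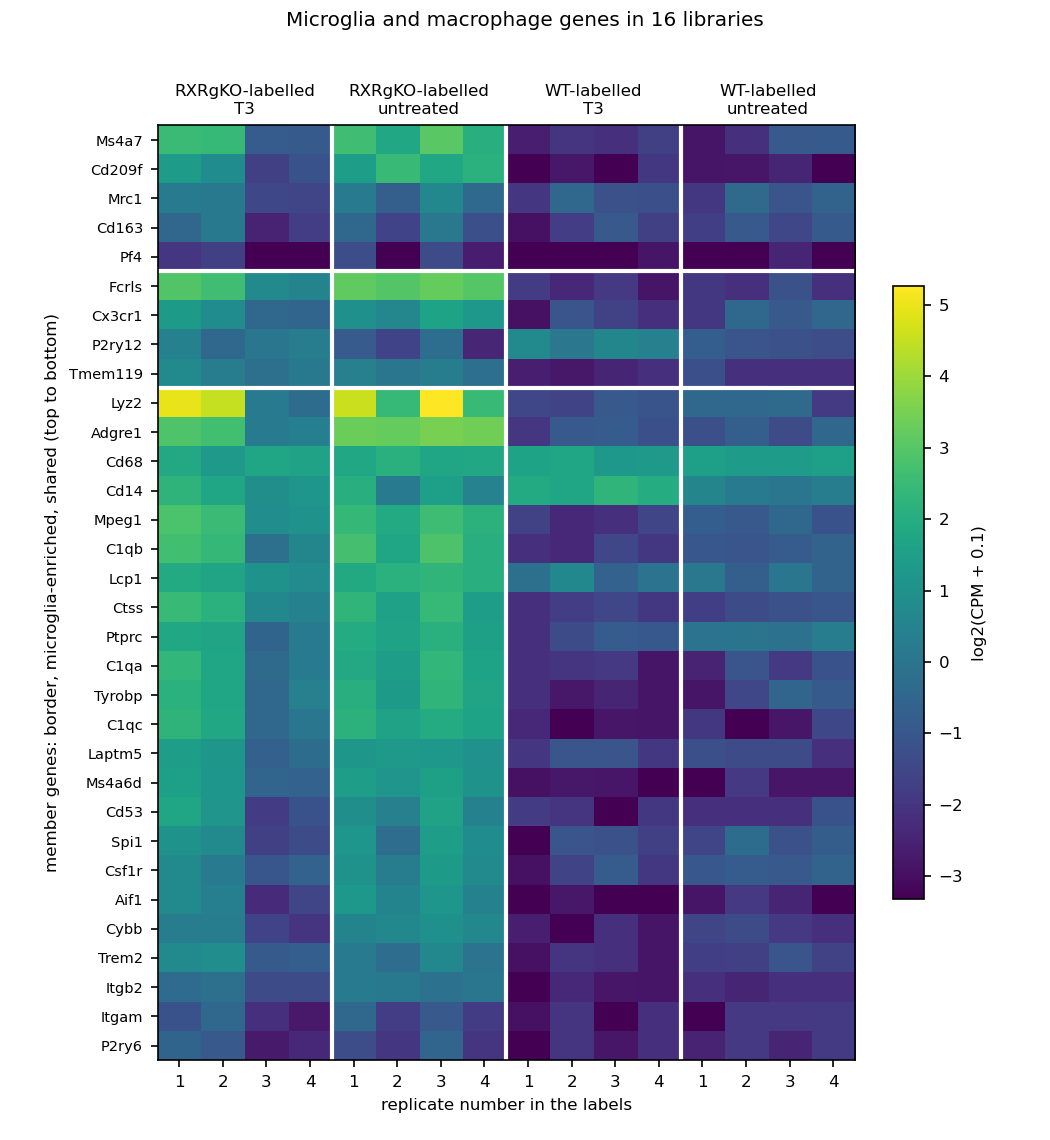
Level of each of the 32 members (rows) in each of the 16 libraries (columns, by group and replicate number) as log2(CPM + 0.1). Most rows are bright in the RXRgKO-labelled libraries and dark in the WT-labelled ones, replicates 3 and 4 with T3 are dimmer than the other RXRgKO-labelled libraries, and Cd68 is about even across all 16.

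The microglia-enriched members did not share a single pattern. Fcrls, an Fc receptor-like scavenger receptor of microglia, was at 7.58, 6.11, 1.64 and 1.38 CPM in the RXRgKO-labelled libraries with T3, 8.77, 7.78, 9.37 and 7.85 CPM in those without, 0.19, 0.096, 0.171 and 0.0412 CPM in the WT-labelled libraries with T3 and 0.163, 0.127, 0.337 and 0.131 CPM in those without. It was thus abundant in all RXRgKO-labelled libraries but the pair with T3 and Xist, and near background in all WT-labelled ones. Tmem119, a membrane protein used to tell microglia from other macrophages, was at 1.62, 1.16, 0.806 and 1.01 CPM in the RXRgKO-labelled libraries with T3, 1.23, 0.924, 1.15 and 0.776 CPM in those without, 0.0632, 0.048, 0.0853 and 0.124 CPM in the WT-labelled libraries with T3 and 0.325, 0.127, 0.126 and 0.131 CPM in those without. Its RXRgKO-labelled libraries stayed within a narrow range, and unlike Fcrls it was not lower in the pair with T3 and Xist than in the untreated pair with Xist. Cx3cr1, the fractalkine receptor, was at 2.44, 1.68, 0.624 and 0.591 CPM in the RXRgKO-labelled libraries with T3, 1.88, 1.46, 3.06 and 2.27 CPM in those without, 0.0316, 0.384, 0.213 and 0.124 CPM in the WT-labelled libraries with T3 and 0.163, 0.634, 0.421 and 0.609 CPM in those without. P2ry12, the ADP receptor through which microglial processes sense injury, was at 1.28, 0.632, 0.936 and 1.16 CPM in the RXRgKO-labelled libraries with T3, 0.445, 0.231, 0.766 and 0.0896 CPM in those without, 1.61, 0.96, 1.45 and 1.24 CPM in the WT-labelled libraries with T3 and 0.488, 0.38, 0.337 and 0.305 CPM in those without. P2ry12 was the only microglia-enriched member whose labels overlapped within a treatment, and in the WT-labelled cells each library with T3 lay above each library without.

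Limits of counting bear on P2ry12 and Cx3cr1. P2ry12 (GRCm38 chromosome 3, 59216272 to 59262871, minus strand) lies inside Med12l on the opposite strand. Med12l was at 43.7 to 64.6 CPM with T3 and 55.1 to 71.0 CPM without in the WT-labelled libraries. In the RXRgKO-labelled ones it was at 43.3 to 62.2 CPM with T3 and 46.5 to 65.7 CPM without. Whether reads of Med12l add to the counts of P2ry12 was not tested. The annotated span of Cx3cr1 also overlaps the genes Wdr48, Gorasp1 and Csrnp1, among others, and Csf1r overlaps Hmgxb3 on the other strand. Whether the deposited counts used the strand of the reads is not given in the sources used here, so reads of these members and their neighbours may not be fully separated.

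Border macrophage members split as well. Ms4a7, a four-span membrane protein of border macrophages, was at 5.73, 5.32, 0.468 and 0.443 CPM in the RXRgKO-labelled libraries with T3, 6.13, 3.35, 8.26 and 4.06 CPM in those without, 0.0632, 0.144, 0.128 and 0.206 CPM in the WT-labelled libraries with T3 and 0.0406, 0.127, 0.421 and 0.435 CPM in those without. Cd209f, a C-type lectin of the DC-SIGN family, was at 2.52, 1.68, 0.208 and 0.345 CPM in the RXRgKO-labelled libraries with T3, 2.67, 5.58, 3.41 and 4.33 CPM in those without, 0, 0.048, 0 and 0.165 CPM in the WT-labelled libraries with T3 and 0.0406, 0.0423, 0.0842 and 0 CPM in those without. Both were far below their other RXRgKO-labelled values in the pair with T3 and Xist, and close to 0 in the WT-labelled libraries. Mrc1, the mannose receptor, was at 1.04, 1.0, 0.26 and 0.246 CPM in the RXRgKO-labelled libraries with T3, 1.03, 0.501, 1.49 and 0.657 CPM in those without, 0.158, 0.624, 0.341 and 0.33 CPM in the WT-labelled libraries with T3 and 0.163, 0.676, 0.379 and 0.566 CPM in those without. Cd163, the scavenger receptor for haemoglobin, was at 0.619, 1.0, 0.078 and 0.197 CPM in the RXRgKO-labelled libraries with T3, 0.651, 0.231, 0.979 and 0.328 CPM in those without, 0.0316, 0.192, 0.427 and 0.206 CPM in the WT-labelled libraries with T3 and 0.203, 0.422, 0.253 and 0.435 CPM in those without. The labels overlapped for Mrc1 and Cd163 in both treatments. Pf4, a chemokine of platelets and macrophages, had 8 counts in the 4 RXRgKO-labelled libraries with T3 against 1 count in the WT-labelled ones, and 18 counts against 2 counts without T3. These counts give ratios of 6.47 (exact 95% interval of counting error only, 0.867 to 287) with T3 and 7.62 (1.83 to 67.7) without T3, and Pf4 did not pass the filter on low counts.

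Among the shared members, the chains of the complement protein C1q and the TREM2 receptor pair showed the plainest contrast. C1qa was at 4.99, 3.21, 0.676 and 1.08 CPM in the RXRgKO-labelled libraries with T3, 3.56, 2.7, 5.07 and 3.08 CPM in those without, 0.126, 0.144, 0.171 and 0.0412 CPM in the WT-labelled libraries with T3 and 0.0813, 0.38, 0.169 and 0.348 CPM in those without. C1qb was at 6.23, 5.21, 0.806 and 1.43 CPM in the RXRgKO-labelled libraries with T3, 6.54, 3.23, 7.11 and 4.09 CPM in those without, 0.126, 0.096, 0.256 and 0.165 CPM in the WT-labelled libraries with T3 and 0.406, 0.38, 0.463 and 0.566 CPM in those without. C1qc was at 4.72, 3.42, 0.65 and 0.936 CPM in the RXRgKO-labelled libraries with T3, 4.52, 3.0, 3.75 and 3.08 CPM in those without, 0.0948, 0, 0.0427 and 0.0412 CPM in the WT-labelled libraries with T3 and 0.163, 0, 0.0421 and 0.261 CPM in those without. The C1q chain genes lie side by side on chromosome 4 (GRCm38, 136880129 to 136898803, minus strand) and were at most 0.566 CPM in any WT-labelled library. Tyrobp, the signalling adaptor of TREM2 and other receptors, was at 4.37, 3.26, 0.65 and 1.23 CPM in the RXRgKO-labelled libraries with T3, 4.14, 2.43, 4.85 and 3.13 CPM in those without, 0.126, 0.048, 0.0853 and 0.0412 CPM in the WT-labelled libraries with T3 and 0.0406, 0.254, 0.59 and 0.435 CPM in those without. Trem2, the lipid and debris receptor that signals through it, was at 1.62, 1.74, 0.442 and 0.492 CPM in the RXRgKO-labelled libraries with T3, 1.1, 0.732, 1.49 and 0.866 CPM in those without, 0.0316, 0.144, 0.128 and 0.0412 CPM in the WT-labelled libraries with T3 and 0.203, 0.211, 0.379 and 0.218 CPM in those without. Unlike Tyrobp, Trem2 was no lower in RXRgKO-labelled replicates 1 and 2 with T3 than in any untreated library of that label.

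Markers used to count macrophages followed the same order of groups. Adgre1, which encodes the adhesion receptor known as the pan-macrophage antigen of the mouse, was at 7.27, 6.16, 1.07 and 1.21 CPM in the RXRgKO-labelled libraries with T3, 10.0, 9.32, 11.2 and 10.5 CPM in those without, 0.158, 0.432, 0.469 and 0.33 CPM in the WT-labelled libraries with T3 and 0.325, 0.507, 0.295 and 0.653 CPM in those without. Aif1, an actin-binding protein used to stain microglia, was at 1.59, 1.21, 0.104 and 0.246 CPM in the RXRgKO-labelled libraries with T3, 2.26, 1.35, 2.17 and 1.25 CPM in those without, 0, 0.048, 0 and 0 CPM in the WT-labelled libraries with T3 and 0.0406, 0.169, 0.0842 and 0 CPM in those without. Csf1r, the receptor for the growth factors CSF1 and IL-34, was at 1.59, 1.05, 0.39 and 0.542 CPM in the RXRgKO-labelled libraries with T3, 1.99, 1.16, 2.47 and 1.61 CPM in those without, 0.0316, 0.24, 0.469 and 0.165 CPM in the WT-labelled libraries with T3 and 0.406, 0.465, 0.421 and 0.566 CPM in those without. In the untreated RXRgKO-labelled libraries Adgre1 was even across the Xist sets, while Csf1r was somewhat higher in replicates 1 and 3. Ptprc, the phosphatase found on all leukocytes, was at 3.33, 3.1, 0.572 and 1.03 CPM in the RXRgKO-labelled libraries with T3, 3.77, 2.97, 4.21 and 2.84 CPM in those without, 0.126, 0.288, 0.469 and 0.412 CPM in the WT-labelled libraries with T3 and 0.854, 0.887, 0.842 and 1.13 CPM in those without. Spi1 was at 1.97, 1.58, 0.208 and 0.295 CPM in the RXRgKO-labelled libraries with T3, 2.19, 0.732, 2.64 and 1.7 CPM in those without, 0, 0.384, 0.341 and 0.206 CPM in the WT-labelled libraries with T3 and 0.244, 0.718, 0.337 and 0.479 CPM in those without. Without T3, Ptprc still reached 0.842 to 1.13 CPM in the WT-labelled libraries, and the labels nearly met for Spi1 in replicate 2 of each.

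Lysosomal and killing genes of phagocytes held the most abundant member. Lyz2 was at 31.1, 22.4, 1.04 and 0.714 CPM in the RXRgKO-labelled libraries with T3, 23.4, 5.32, 38.2 and 5.43 CPM in those without, 0.253, 0.24, 0.427 and 0.371 CPM in the WT-labelled libraries with T3 and 0.65, 0.634, 0.674 and 0.174 CPM in those without. It was higher in the RXRgKO-labelled libraries lacking Xist than in those with it already without T3, where the test between these sets gave a log2 difference of 2.51, lacking over with (SE 0.26, adjusted p = 7.3e-06). Granulocytes make Lyz2 too, and the sum of the 8 granulocyte markers was also higher in the RXRgKO-labelled libraries lacking Xist than in those with it. They summed to 1.78, 2.32, 0.26 and 0.123 CPM in the RXRgKO-labelled libraries with T3 and 7.06, 0.462, 5.62 and 0.955 CPM in those without, against 0.126 to 0.683 CPM with T3 and 0.244 to 0.842 CPM without in the WT-labelled libraries. Between treatments they did not follow Lyz2 in the libraries lacking Xist. There the granulocyte sum with T3 was 32.3% of the untreated level, while the ratio of T3 to untreated levels of Lyz2 was 0.867. S100a8 and S100a9, the leading granulocyte markers of the RXRgKO-labelled libraries, were both at 0 in the RXRgKO-labelled replicate 4 with T3, and their part in the Lyz2 result was not tested. Mpeg1, a pore-forming protein of phagosomes, was at 7.08, 5.68, 1.74 and 2.02 CPM in the RXRgKO-labelled libraries with T3, 5.1, 3.66, 5.92 and 4.51 CPM in those without, 0.221, 0.096, 0.128 and 0.247 CPM in the WT-labelled libraries with T3 and 0.488, 0.422, 0.632 and 0.348 CPM in those without. Ctss, the lysosomal protease cathepsin S, was at 5.49, 4.32, 1.51 and 1.26 CPM in the RXRgKO-labelled libraries with T3, 4.83, 2.93, 5.28 and 2.69 CPM in those without, 0.126, 0.192, 0.256 and 0.165 CPM in the WT-labelled libraries with T3 and 0.203, 0.296, 0.337 and 0.392 CPM in those without. Laptm5, a lysosomal membrane protein of blood cells, was at 2.67, 2.21, 0.52 and 0.714 CPM in the RXRgKO-labelled libraries with T3, 2.23, 2.35, 2.3 and 1.94 CPM in those without, 0.158, 0.384, 0.384 and 0.165 CPM in the WT-labelled libraries with T3 and 0.325, 0.296, 0.295 and 0.131 CPM in those without. These lysosomal members were lower in the pair with T3 and Xist than in the other RXRgKO-labelled libraries, but remained above every WT-labelled library. Cybb, the catalytic subunit of the phagocyte NADPH oxidase, was at 1.12, 1.16, 0.234 and 0.148 CPM in the RXRgKO-labelled libraries with T3, 1.37, 1.5, 1.87 and 1.52 CPM in those without, 0.0632, 0, 0.128 and 0.0412 CPM in the WT-labelled libraries with T3 and 0.244, 0.296, 0.169 and 0.131 CPM in those without.

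Cell surface and cytoskeletal members completed the shared list. Ms4a6d, a membrane protein of macrophages, was at 2.75, 2.16, 0.598 and 0.542 CPM in the RXRgKO-labelled libraries with T3, 2.71, 2.12, 2.81 and 2.0 CPM in those without, 0.0316, 0.048, 0.0427 and 0 CPM in the WT-labelled libraries with T3 and 0, 0.169, 0.0421 and 0.0435 CPM in those without. Lcp1, the leukocyte actin bundler plastin, was at 3.68, 3.1, 1.95 and 1.67 CPM in the RXRgKO-labelled libraries with T3, 3.6, 4.31, 4.81 and 4.12 CPM in those without, 0.79, 1.49, 0.555 and 0.866 CPM in the WT-labelled libraries with T3 and 0.976, 0.507, 0.927 and 0.566 CPM in those without. Itgb2, the beta chain of the leukocyte integrins, was at 0.696, 0.789, 0.286 and 0.295 CPM in the RXRgKO-labelled libraries with T3, 1.1, 1.0, 0.852 and 0.925 CPM in those without, 0, 0.096, 0.0427 and 0.0412 CPM in the WT-labelled libraries with T3 and 0.122, 0.0845, 0.126 and 0.131 CPM in those without. Lcp1 had the smallest gap of these between labels, and Ms4a6d and Itgb2 were nearly absent from the WT-labelled libraries. Cd53, a leukocyte tetraspanin, was at 3.21, 2.1, 0.182 and 0.345 CPM in the RXRgKO-labelled libraries with T3, 1.81, 1.23, 2.98 and 1.25 CPM in those without, 0.19, 0.144, 0 and 0.165 CPM in the WT-labelled libraries with T3 and 0.122, 0.127, 0.126 and 0.348 CPM in those without. Its values in the pair with T3 and Xist reached down to those of WT-labelled libraries. Itgam, the alpha chain that pairs with Itgb2, was at 0.348, 0.632, 0.13 and 0.0492 CPM in the RXRgKO-labelled libraries with T3, 0.651, 0.193, 0.426 and 0.179 CPM in those without, 0.0316, 0.144, 0 and 0.124 CPM in the WT-labelled libraries with T3 and 0, 0.169, 0.169 and 0.174 CPM in those without. P2ry6, the UDP receptor that triggers phagocytosis by microglia, was at 0.58, 0.421, 0.052 and 0.0985 CPM in the RXRgKO-labelled libraries with T3, 0.308, 0.154, 0.596 and 0.149 CPM in those without, 0, 0.144, 0.0427 and 0.124 CPM in the WT-labelled libraries with T3 and 0.0813, 0.169, 0.0842 and 0.174 CPM in those without. These were the lowest shared members in the RXRgKO-labelled groups, and both failed the filter on low counts.

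The remaining shared members, Cd68 and Cd14, departed from this order. Cd68, a lysosomal protein that marks phagocytes, was at 3.56, 2.37, 3.3 and 2.98 CPM in the RXRgKO-labelled libraries with T3, 3.39, 4.24, 3.19 and 3.4 CPM in those without, 3.07, 3.31, 2.3 and 2.39 CPM in the WT-labelled libraries with T3 and 2.76, 2.49, 2.53 and 2.79 CPM in those without. It lay between 2.3 and 4.24 CPM in all 16 libraries, with the labels overlapping with T3 and the RXRgKO-labelled libraries above the WT-labelled ones without T3. Cd14, the co-receptor for bacterial lipopolysaccharide, was at 4.64, 3.26, 1.77 and 2.17 CPM in the RXRgKO-labelled libraries with T3, 4.14, 1.08, 2.77 and 1.28 CPM in those without, 3.67, 3.22, 4.78 and 3.83 CPM in the WT-labelled libraries with T3 and 1.38, 1.06, 0.927 and 1.13 CPM in those without. Every WT-labelled library with T3 lay above every one without, and within the RXRgKO label the libraries lacking Xist lay above those with Xist in both treatments.

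**Figure D2:**
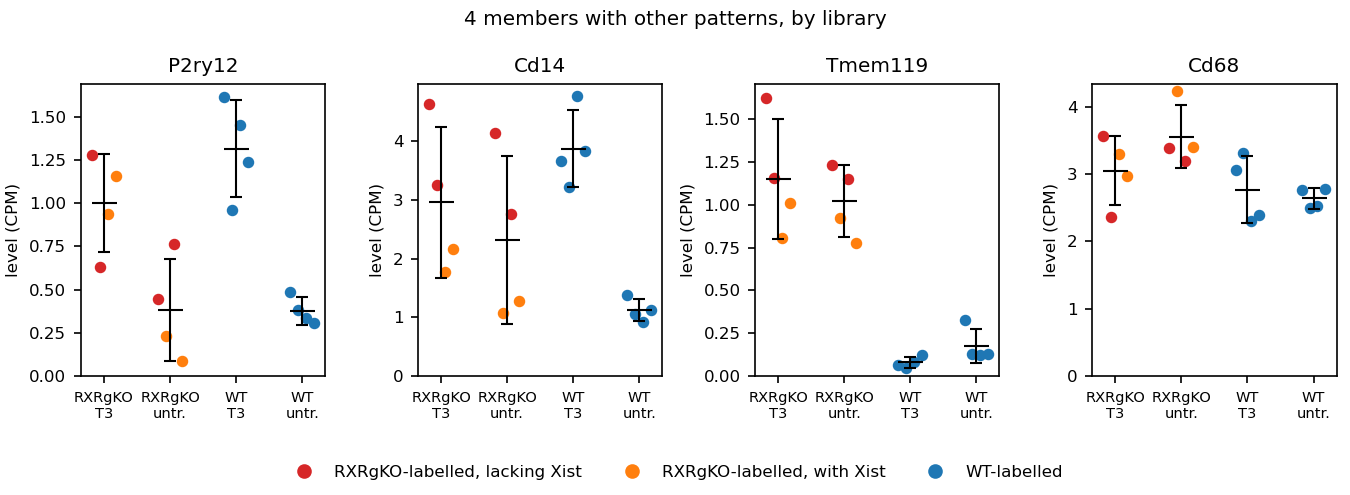
Levels of P2ry12, Cd14, Tmem119 and Cd68 in each library (points; CPM), by group from RXRgKO-labelled with T3 on the left to WT-labelled without T3 on the right, with the mean and SD of each group (n = 4). P2ry12 and Cd14 are higher with T3 in the WT-labelled libraries, Tmem119 separates the genotype labels in both treatments, and the Cd68 groups lie close together.

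The comparison of genotype labels asks how cells labelled RXRgKO differ from cells labelled WT. With T3, 23 members were higher in the RXRgKO-labelled libraries, 0 were lower and 6 were not called, of 29 that passed the filter on low counts (edgeR's quasi-likelihood test on all 16 libraries, Benjamini-Hochberg adjusted p under 0.05). Of all 19764 genes tested, 8.10% were called higher and 6.80% lower. Without T3 the counts were 23 higher, 0 lower and 6 not called, with 6.17% of all genes called higher and 5.16% lower. No member was lower at an unadjusted p under 0.05 in either comparison, and DESeq2 called 24 higher and 0 lower in each, adding Spi1. By limma voom 17 were higher with T3 and 21 without, and 0 lower. Lyz2 lost its call there in both treatments (adjusted p = 0.3 with T3 and 0.121 without), as did Cd53 (0.227 and 0.0646), and Ms4a7, Cd209f, Csf1r and Cybb lost theirs with T3. The same 23 members were called in both treatments: Tmem119, Cx3cr1 and Fcrls of the microglia-enriched class, Ms4a7 and Cd209f of the border class, and 18 shared members. The filter bears on this count, because all 29 members passed it on the RXRgKO-labelled libraries alone but only 6 on the WT-labelled ones alone, and a member that passed only where it was high had to differ. Without a filter, 23 of all 32 members were called higher in each treatment, against 2.35% of 49786 genes with T3 and 1.97% without.

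Sizes ranged widely. Among microglia-enriched members, Fcrls had a log2 fold change of 4.94 with T3 (SE 0.61, adjusted p = 3.8e-05) and 5.44 without (SE 0.58, adjusted p = 1.0e-05). Tmem119 had values of 3.76 with T3 (SE 0.41, adjusted p = 9.4e-06) and 2.48 without (SE 0.37, adjusted p = 2.0e-04). Cx3cr1 was higher by 2.85 with T3 (SE 0.61, adjusted p = 0.00387) and by 2.24 without (SE 0.52, adjusted p = 0.00869). In the border class, Cd209f was higher by 4.36 with T3 (SE 0.94, adjusted p = 0.00399) and by 6.42 without (SE 0.89, adjusted p = 1.2e-04). The WT-labelled libraries held only 5 counts of Cd209f with T3 and 4 without. Ms4a7 was higher by 4.41 with T3 (SE 0.93, adjusted p = 0.00332) and 4.40 without (SE 0.83, adjusted p = 0.00177). Of the shared members, C1qc was higher by 5.45 with T3 (SE 0.82, adjusted p = 2.2e-04) and by 4.90 without (SE 0.71, adjusted p = 1.9e-04), on 5 and 11 WT-labelled counts. Adgre1 was higher by 3.49 with T3 (SE 0.60, adjusted p = 7.0e-04) and by 4.52 without (SE 0.58, adjusted p = 5.4e-05). The remaining called shared members had log2 fold changes from 1.89 (Ptprc) to 5.15 (Ms4a6d) without T3. With T3, Aif1 had 78 counts against 1 and Ms4a6d 157 counts against 3, for ratios of 63.1 (exact 95% interval of counting error, 11.0 to 2522) and 42.3 (14.2 to 207). The other called shared members had log2 fold changes with T3 from 1.49 (Lcp1) to 5.45 (C1qc). With T3, Csf1r and Cd53 were not called without RXRgKO-labelled replicate 1, at log2 fold changes of 1.52 and 2.57, nor was Csf1r without WT-labelled replicate 4, at 1.86.

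The members not called were P2ry12, Mrc1, Cd163, Cd68, Spi1 and Cd14. P2ry12 had a log2 fold change of -0.39 with T3 (SE 0.38, adjusted p = 0.589) and -0.03 without (SE 0.46, adjusted p = 0.982). Spi1 had values of 2.11 with T3 (SE 0.79, adjusted p = 0.0876) and 2.02 without (SE 0.70, adjusted p = 0.0765). Cd14 had values of -0.41 with T3 (adjusted p = 0.538) and 1.04 without (adjusted p = 0.113). Mrc1, Cd163 and Cd68 had values from 0.15 to 1.06 with T3 and from 0.43 to 1.03 without.

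Ranges of single libraries gave a similar picture. RXRgKO-labelled values all exceeded WT-labelled values for 21 of 32 members with T3, against 9.17% of all genes tested, and for 26 of 32 without T3, against 9.35%. The members that overlapped without T3 were P2ry12, Mrc1, Cd163, Pf4, P2ry6 and Cd14, and Csf1r, Itgam, Cd68, Spi1 and Cd53 overlapped with T3 as well.

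**Figure D3:**
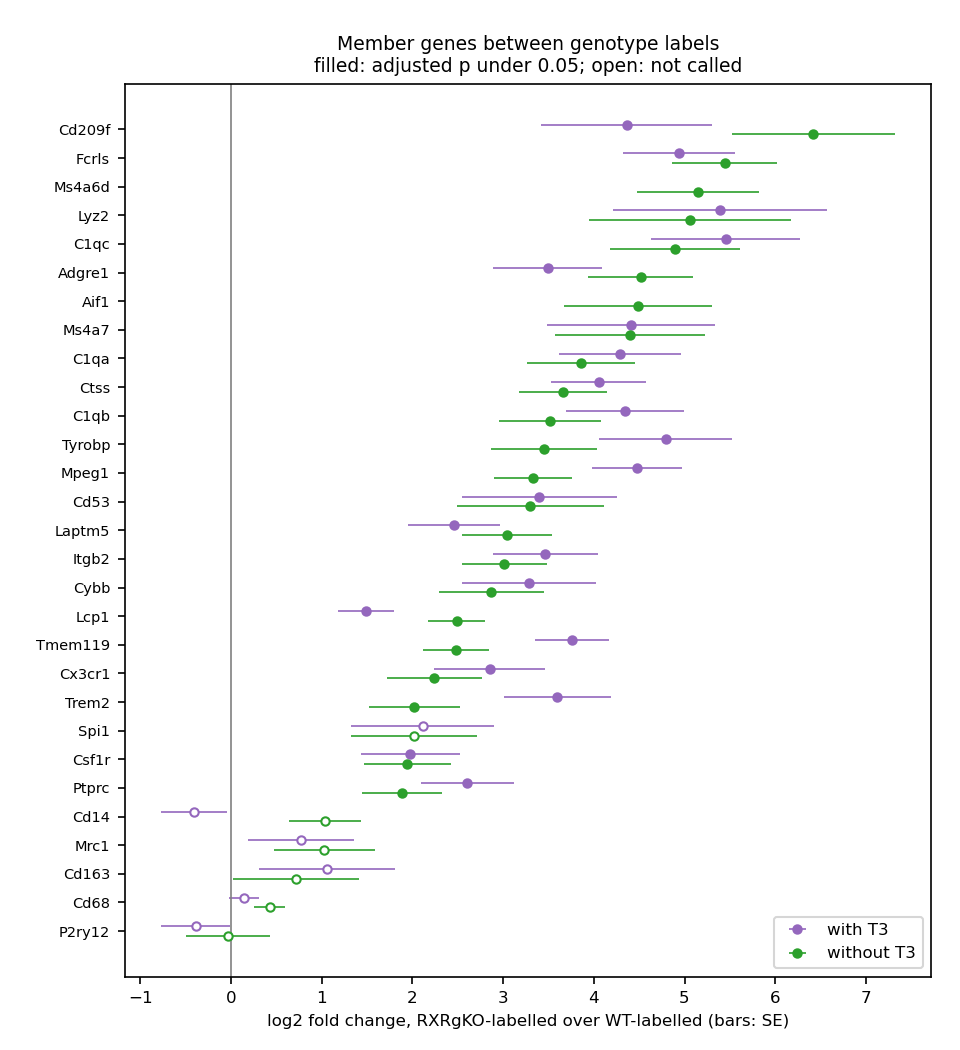
Log2 fold change of each tested member, RXRgKO-labelled over WT-labelled, with T3 (purple) and without (green); bars are standard errors and open points did not pass an adjusted p of 0.05. Cd209f has the largest value without T3 at 6.42, on 4 WT-labelled counts, and the fitted values of Aif1 and Ms4a6d with T3 are left out because the WT-labelled libraries held 1 and 3 counts.

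The RXRgKO-labelled libraries with Xist carried less of the difference than those without it. With the RXRgKO-labelled libraries with Xist set against all WT-labelled ones, 15 members were higher and 1, Cd14, was lower with T3, where 8.21% of 19733 genes were called higher and 7.58% lower. Cd14 then had a log2 fold change of -1.02 (SE 0.22, adjusted p = 0.00674). Neither called border member kept its call there: Ms4a7 had a value of 1.72 (adjusted p = 0.0767) and Cd209f of 2.32 (adjusted p = 0.0630). Members of the other classes lost theirs as well: microglia-enriched Cx3cr1, at 1.73 (adjusted p = 0.0776), and shared Csf1r, Laptm5, Cybb, Lcp1 and Cd53. Without T3 the same libraries gave 22 members higher and 0 lower, with 6.16% of genes higher and 5.18% lower, and 1 member, P2ry12, was lower at an unadjusted p under 0.05. The RXRgKO-labelled libraries lacking Xist gave 28 of 31 tested members higher and 0 lower with T3, against 11.8% and 15.7% of 21620 genes, and 26 higher and 0 lower without T3, against 8.78% and 12.1%. No member was lower there at an unadjusted p under 0.05.

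The sets also differed from each other within the RXRgKO label. With T3, the libraries lacking Xist had 26 members higher than those with Xist and 0 lower, of 29, where 27.3% of all genes were higher and 31.8% lower. The exceptions were P2ry12, Tmem119 and Cd68, with log2 differences of -0.09, 0.63 and -0.05. Without T3, 12 members were higher in the libraries lacking Xist and 1, Cd209f, was lower by 0.71 (SE 0.25, adjusted p = 0.0170), where 24.4% of all genes were higher and 27.0% lower. Read statistics moved with the sets. With T3, reads in genes were 29.5% and 25.6% of all reads in the libraries lacking Xist and 39.7% and 38.0% in those with it, and reads in no gene were 16.8% and 18.7% against 12.5% and 11.55%. The libraries lacking Xist had 38116 and 37646 genes with a count, and those with it 33260 and 33098. Without T3, reads in genes were 25.1% and 22.4% in the libraries lacking Xist and 33.7% and 33.1% in those with it. The part of these in the member results was not tested. P-values within sets rest on pairs of libraries that differ little and measure only that small spread.

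T3 treatment asks how the cells respond to a hormone that drives OPC differentiation. In the WT-labelled cells, 2 members were higher with T3, P2ry12 and Cd14, and 0 were lower, of 29 tested, where 4.96% of all genes were called higher and 3.48% lower. P2ry12 had a log2 fold change of 1.79 (SE 0.42, adjusted p = 0.0136). It averaged 1.315 ± 0.282 CPM with T3 and 0.377 ± 0.0798 CPM without (SD, n = 4 each). Cd14 was higher by 1.78 (SE 0.39, adjusted p = 0.00800), at 3.87 ± 0.657 CPM with T3 and 1.12 ± 0.192 CPM without. In replicate 1, with 1 library per treatment and so no test, the log2 differences were 1.71 for P2ry12 and 1.40 for Cd14. Of the other 27 members, 0 were called. At an unadjusted p under 0.05, 4 of them (Tyrobp, Trem2, Mpeg1 and Ptprc) were lower, and DESeq2 called 1 lower, Ptprc. Most of these members passed the filter through the RXRgKO-labelled libraries and had few WT-labelled counts. The summed level of all 32 averaged 13.05 CPM with T3 and 12.96 CPM without, but this sum includes P2ry12 and Cd14. Cd14 made up 23.3% to 33.3% of it with T3 and 7.07% to 11.8% without. P2ry12 made up 6.94% to 13.9% with T3 and 2.21% to 4.17% without. The even sum therefore does not show that the other members were level. Ptprc had a value of -1.54 (SE 0.54, adjusted p = 0.0946) by edgeR. It was also called with a replicate block on these groups alone. Within WT-labelled replicates 2 to 4, P2ry12 and Cd14 were higher and 5 members were lower, Tyrobp by 2.77, Mpeg1 by 1.52, C1qb by 1.40, Ptprc by 1.26 and Cx3cr1 by 1.23, where 24.2% of all genes were higher and 20.1% lower.

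Over all RXRgKO-labelled libraries, 0 members were called higher and 0 lower with T3, where 2.01% of all genes were called higher and 0.794% lower. At an unadjusted p under 0.05, 1 member was higher and 7 were lower, and DESeq2 called only P2ry12, as higher. By limma voom, P2ry12 was higher and Fcrls, Cd209f, Aif1, Adgre1 and Cybb were lower, and with library set as a term 1 member was higher and 17 were lower. Of all 19764 genes, limma voom called 630 and the fit with library set as a term 6634, in either direction. P2ry12 had a log2 fold change of 1.44 (SE 0.42, adjusted p = 0.0828) and Cd14 of 0.34 (SE 0.37, adjusted p = 0.684). The median over the 29 members was -0.65, against -0.00188 over all genes. This count rests on groups made of unlike sets, since with T3 the members were high in replicates 1 and 2 and low in replicates 3 and 4.

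Within the sets the T3 comparison divided. Among the RXRgKO-labelled libraries with Xist, 23 members were lower with T3 and 2 were higher, of 29, where 24.2% of all genes were called higher and 14.5% lower. Cd209f fell by 4.13 (SE 0.33, adjusted p = 5.0e-13), Adgre1 by 3.12 (SE 0.18, adjusted p = 2.8e-17), and Ms4a7 by 3.02 (SE 0.27, adjusted p = 1.1e-11). Fcrls fell by 2.37 (SE 0.19, adjusted p = 1.7e-13). P2ry12 rose by 2.75 (SE 0.48, adjusted p = 1.7e-05) and Cd14 by 0.72 (SE 0.26, adjusted p = 0.0253). Tmem119 had a value of 0.11 (SE 0.35, adjusted p = 0.837), Trem2 of -0.77, Cd163 of -1.01 and Cd68 of -0.27, none of which was called. Among the libraries lacking Xist, 1 member, Adgre1, was lower, by 0.65 (SE 0.15, adjusted p = 0.00194), and 0 were higher, where 11.4% of all genes were higher and 6.93% lower. At an unadjusted p under 0.05, 0 members were higher and 3 lower there (Fcrls, Csf1r and Adgre1), and DESeq2 was not run on the sets. The test of the difference between the sets gave 19 members with a lower T3 change in the libraries with Xist and 0 with a higher one, where 2.18% and 5.80% of all genes had such differences. P2ry12 was the 1 member with a higher T3 change there at an unadjusted p under 0.05 (2.02, SE 0.67, adjusted p = 0.0539). Ddx3y also differed between treatments in the libraries with Xist, as given above, and these falls cannot be told apart from a difference between cultures.

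**Figure D4:**
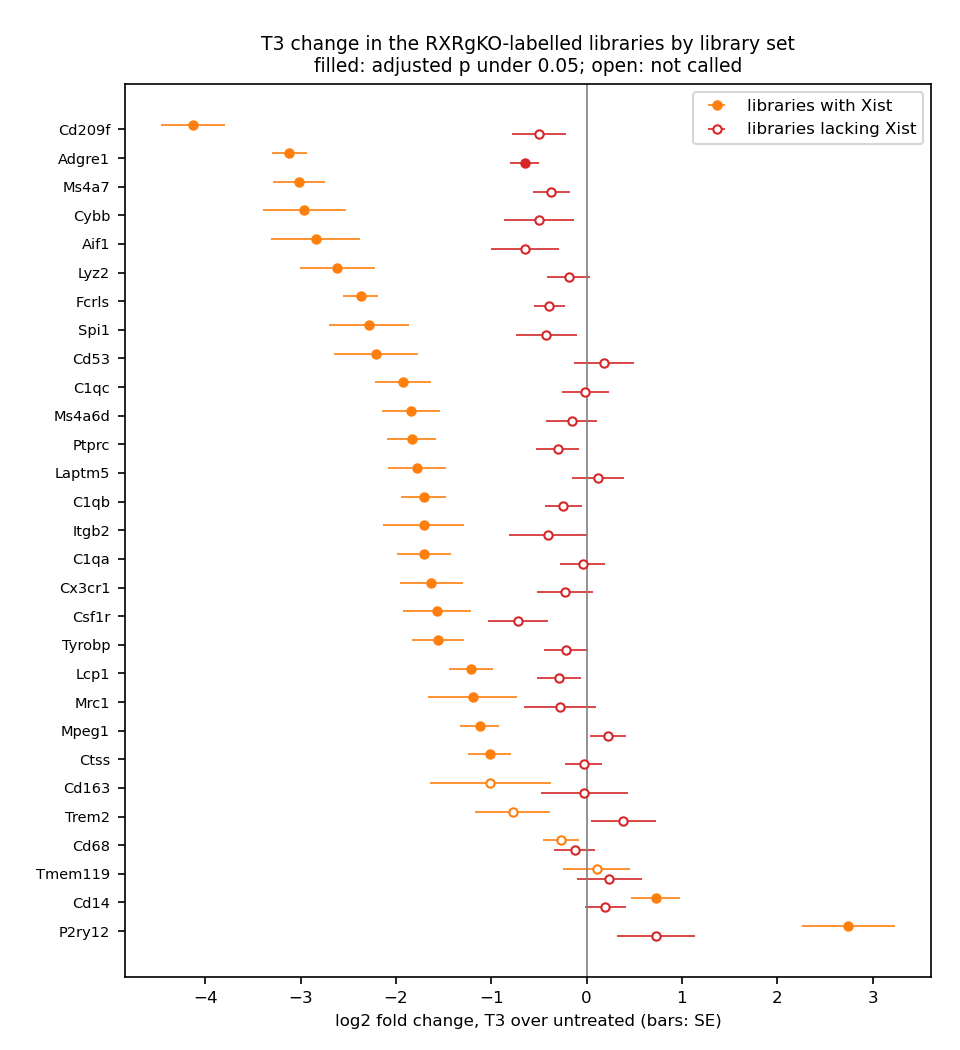
Log2 fold change with T3 for each tested member in the RXRgKO-labelled libraries with Xist (orange) and lacking Xist (red); bars are standard errors and open points did not pass an adjusted p of 0.05. Cd209f is lowest at -4.13 in the libraries with Xist, while most members lie near 0 in those lacking it.

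The last contrast asks whether the T3 response differed between the labels, and no member was called. Of 29 members, 0 had a higher and 0 a lower response in the RXRgKO-labelled cells, where 0.0101% and 0.0557% of all genes did (edgeR), 1 and 2 members passed at an unadjusted p under 0.05, and DESeq2 called 0. Cd14 had a difference in response of -1.44 (SE 0.53, adjusted p = 0.658), Lcp1 of -1.0 (SE 0.44, adjusted p = 0.896) and Tmem119 of 1.28 (SE 0.58, adjusted p = 0.921).

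Microglia-enriched members were then set against border macrophage members. The 4 microglia-enriched members summed to 12.9, 9.58, 4.01 and 4.14 CPM in the RXRgKO-labelled libraries with T3 and 12.3, 10.4, 14.3 and 11.0 CPM in those without, against 1.9, 1.49, 1.92 and 1.52 CPM in the WT-labelled libraries with T3 and 1.14, 1.27, 1.22 and 1.18 CPM in those without. The 5 border members summed to 10.1, 9.21, 1.01 and 1.23 CPM in the RXRgKO-labelled libraries with T3 and 10.8, 9.67, 14.4 and 9.43 CPM in those without, against 0.253, 1.01, 0.896 and 0.948 CPM in the WT-labelled libraries with T3 and 0.447, 1.27, 1.22 and 1.44 CPM in those without. Both classes were high in the same RXRgKO-labelled libraries. With T3 and Xist, the border sum of 1.01 and 1.23 CPM lay within the range of the untreated WT-labelled libraries, while the microglia-enriched sum stayed above every WT-labelled library. In the RXRgKO-labelled libraries with Xist, the level with T3 was 38.1% of the untreated level for microglia-enriched members, 11.8% for border members and 33.9% for shared members. In those lacking Xist it was 84.4%, 76.4% and 87.4% for the same classes. P2ry12 and Tmem119 were not lower with T3 in the set with Xist, where the ratio of T3 to untreated levels was 6.53 for P2ry12 and 1.07 for Tmem119. Single members crossed the classes there. The ratio was 0.193 for Fcrls and 0.326 for Cx3cr1, against 0.438 for Mrc1 and 0.492 for Cd163. Ms4a7 and Cd209f had ratios of 0.123 and 0.0558, and shared Adgre1 one of 0.115. With T3 and Xist, Ms4a7 and Cd209f together carried most of the border sum, and the difference between classes was not tested.

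**Figure D5:**
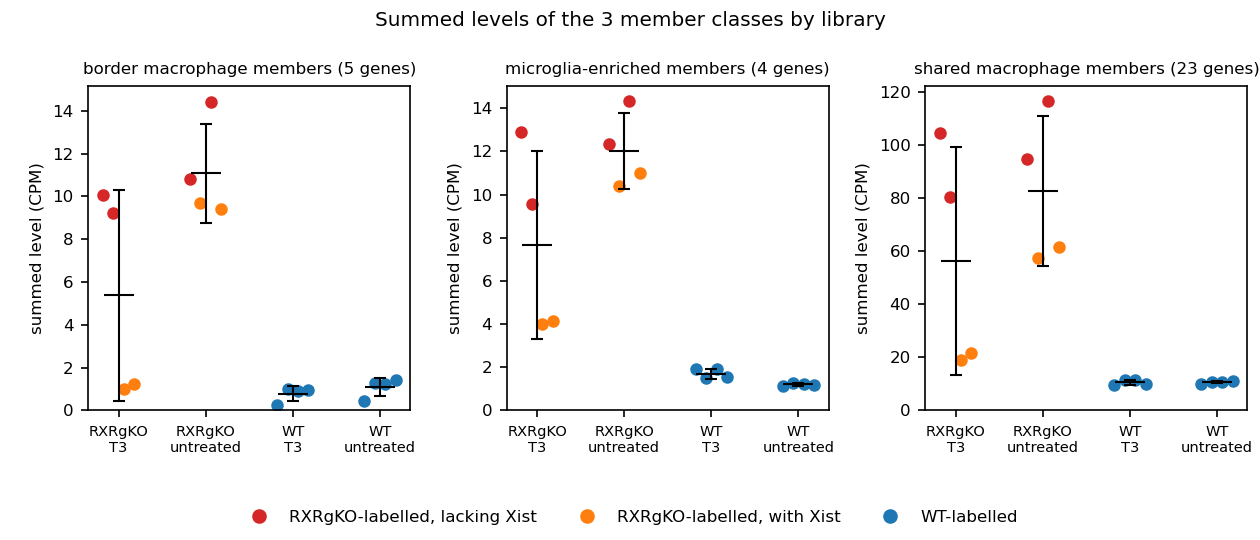
Summed level (CPM) of the 5 border macrophage, 4 microglia-enriched and 23 shared members in each library, with the mean and SD of each group (n = 4). In all 3 classes the RXRgKO-labelled libraries with T3 split by Xist, and border members with T3 and Xist come down to 1.01 and 1.23 CPM.

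Genes of the same systems outside the list gave context. Of 10 ligands of macrophage receptors, 9 were tested, and 2 were higher and 0 lower in the RXRgKO-labelled libraries with T3, and 1 higher and 0 lower without, beside the shares of all genes given above (8.10% higher and 6.80% lower with T3, 6.17% and 5.16% without). Il34, a ligand of the CSF1 receptor, was higher by 2.23 with T3 (SE 0.54, adjusted p = 0.00882), on the log2 scale. Csf1, the other ligand, had a log2 fold change of -0.23 (adjusted p = 0.509). It lay at 45.0 to 121 CPM in all 16 libraries. Cd200, which restrains macrophages through their CD200 receptor, was higher by 0.60 with T3 (SE 0.14, adjusted p = 0.00566). Pros1, a bridging ligand of the phagocytic receptors AXL and MERTK, rose with T3 in both labels, by 1.51 in RXRgKO-labelled cells (SE 0.22, adjusted p = 7.2e-04) and by 1.77 in WT-labelled cells (SE 0.22, adjusted p = 8.6e-05). With T3 against without, the ligand list had 1 member higher in the RXRgKO-labelled cells, Pros1, where 2.01% of all genes were higher and 0.794% lower. In the WT-labelled cells 2 were higher, Pros1 and Csf1, where 4.96% of all genes were higher and 3.48% lower. Csf1 rose there by 0.79 (SE 0.19, adjusted p = 0.0174), and 0 ligands were lower in either label.

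Of 11 complement partners of C1q, 9 were tested, and 6 were higher with T3 and 5 without in the RXRgKO-labelled libraries, and 0 were lower in each, beside the same 8.10% and 6.17% of all genes called higher. Among them, C1s1, Serping1, Cd59a and C3ar1 were higher in both, and C1ra was higher with T3. C3ar1, the macrophage receptor for C3a, was higher by 3.64 with T3 (SE 0.57, adjusted p = 3.3e-04) and by 3.33 without (SE 0.49, adjusted p = 2.0e-04). Serping1, the C1 inhibitor, and Cd59a, a blocker of the membrane attack complex, were higher with T3 by 0.94 and 1.40 (adjusted p = 0.0118 and 0.00342). Of 24 activation and phagocytosis genes, 20 were tested, and 8 were higher with T3 and 8 without, while 2 were lower with T3 (Lamp1 and Grn) and 1 without (Lamp1), where 6.80% and 5.16% of all genes were lower. Gpnmb, a glycoprotein of lipid-laden phagocytes, was higher by 1.64 with T3 (adjusted p = 0.00762), and Ccl2, a monocyte-attracting chemokine, by 2.32 (adjusted p = 0.00143). Lpl, lipoprotein lipase, was higher by 1.43 (adjusted p = 0.00276) and Lgals3, galectin-3, by 1.03 (adjusted p = 0.00285). Not all of these genes are particular to macrophages, since OPCs and astrocytes express several of them.

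Markers of other cell types also differed between the labels. The 8 oligodendrocyte markers summed to 3150 to 5125 CPM with T3 and 1686 to 2289 CPM without in the RXRgKO-labelled libraries, against 19420 to 29680 CPM and 13090 to 17670 CPM in the WT-labelled ones. The 8 OPC markers, led by Ptprz1, summed to 2110 to 5051 CPM in the RXRgKO-labelled libraries of both treatments, against 3013 to 5318 CPM in the WT-labelled ones. Within the RXRgKO label the OPC sum averaged 2138 CPM with T3 and 2740 CPM without in the libraries lacking Xist, against 4051 and 5023 CPM in those with it. The 8 astrocyte markers went the other way, at 7924 and 5818 CPM in the libraries lacking Xist against 4702 and 3075 CPM in those with it. Endothelial markers, led by Kdr and Flt1, summed to 22.7 to 34.0 CPM with T3 and 22.8 to 50.03 CPM without in the RXRgKO-labelled libraries, against 9.40 to 11.7 CPM and 7.56 to 9.75 CPM in the WT-labelled ones. Mural markers summed to 202 to 345 CPM with T3 and 131 to 417 CPM without in the RXRgKO-labelled libraries, against 55.7 to 69.0 CPM and 45.9 to 72.3 CPM in the WT-labelled ones. Acta2 made up most of that sum in the RXRgKO-labelled libraries, at 213, 174, 304 and 274 CPM with T3 and 86.8, 370, 168 and 241 CPM without, against 25.1, 23.6, 29.8 and 34.7 CPM and 3.21, 13.4, 17.2 and 15.6 CPM in the WT-labelled ones. Vtn was also higher with the RXRgKO label, at 99 to 241 counts against 18 to 53 counts with T3. Without T3, Vtn had 170 to 374 counts against 17 to 30 counts. Pdgfrb overlapped between labels, and Rgs5 without T3 was at 21.3, 4.85, 18.4 and 6.0 CPM in the RXRgKO-labelled libraries against 26.1, 26.1, 27.5 and 25.7 CPM in the WT-labelled ones. Mast cell markers summed to 2.4, 2.68, 0.65 and 0.517 CPM with T3 and 2.4, 1.16, 4.04 and 1.34 CPM without in the RXRgKO-labelled libraries, against at most 0.816 CPM and 1.095 CPM in the WT-labelled ones. Lymphocyte markers summed to 2.55, 3.26, 1.3 and 1.03 CPM with T3 and 2.71, 1.93, 4.26 and 1.67 CPM without, against at most 1.57 CPM and 1.70 CPM. Both were higher in the RXRgKO-labelled libraries lacking Xist than in those with it, as 26 members were with T3, and Ptprc, Spi1, Cd53, Laptm5 and Itgb2 are known from other leukocytes too. Erythroid markers reached 0.937 CPM at most. With T3, the endothelial and mural sums averaged 34.0 and 331 CPM in the RXRgKO-labelled libraries with Xist and 23.25 and 222.5 CPM in those lacking it, carried mostly by Kdr and Acta2. Flt1 and Pdgfrb were also higher with Xist there, Pdgfrb at 944 and 976 counts against 202 and 150 counts. Some lower markers went the other way, among them Pecam1 at 1.16, 1.47, 0.494 and 0.418 CPM and Cdh5 at 0.774, 1.16, 0.416 and 0.468 CPM in RXRgKO-labelled replicates 1 to 4 with T3. Their part in the member results was not tested.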

How the data were processed

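RNA-seq read counts per gene were deposited for 16 libraries. The submitters' processing notes name HTSeq 0.6.1p1, STAR 2.5.3a, bcl2fastq 2.17.1.14 and the mm10 build. Which annotation release was counted, and with which strand setting, is not given in the sources used here. Of each file, 5 HTSeq summary lines were left out of library sizes and tests; reads in no gene were 11.5% to 23.5% and reads aligned to several places 39.6% to 55.0% of all reads in a library. Of 55335 gene IDs, 55154 matched GENCODE M21, which gave symbols, positions and exon lengths.

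Genes were tested with edgeR 4.0.16 (R 4.3.3): trimmed mean of M-values scaling, filterByExpr, a robust quasi-likelihood fit of group means over all 16 libraries, and Benjamini-Hochberg adjustment over 19764 genes, called at 0.05. Standard errors are the log2 fold change divided by the root of F. Alternatives used limma 3.58.1 (voom), DESeq2 1.42.0, other filters, a replicate block and left-out libraries. Library sets were pairs with a chi-square per gene under 3, over genes with 20 to 500 counts; sets with Xist had over 20 CPM. The fits were tested on simulated data.

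The members and lists were chosen with earlier results of these data known. Per-library values were given for members that averaged 1 CPM or more in any group or were called in any comparison. They were also given for Mrc1, Cd163, Itgam and P2ry6, which met neither rule. Genes of the other lists were named by adjusted p, but Lamp1, Grn, C1s1, C1ra, Rgs5, Vtn, Pecam1 and Cdh5 were named after their values were seen. Same-numbered WT-labelled libraries with and without T3 deviated together, with correlations of 0.764, 0.444, 0.439 and 0.267 for replicates 1 to 4, so a replicate block was tried beside the reported fit, which has none; replicate 2 was the best match of replicates 2, 3 and 4. The numbering did not pair the other comparisons. Values of some listed genes are not reported here. Intervals and floors cover counting error only.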

Additional observations from a re-analysis of the deposited data

Results flagged for a closer look

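In 9 of 124 groups of 4 libraries screened (27 members and 4 sums), 1 library stood far from the other 3. Chance gives about 1 in 20 such groups for normally spread values, a rate that need not hold for a few reads. Several of these rest on few reads, such as 8 counts of Tmem119 or of Cd53 against 3 counts in each other library. Among untreated WT-labelled libraries these were Tmem119 at 0.3252 CPM in replicate 1, Fcrls at 0.3369 CPM and Trem2 at 0.379 CPM in replicate 3, and Lyz2 at 0.1741 CPM, Laptm5 at 0.1306 CPM, Ptprc at 1.132 CPM and Cd53 at 0.3482 CPM in replicate 4. Among WT-labelled libraries with T3 they were Aif1 at 0.04802 CPM in replicate 2, which is 1 read against 0 in the other 3 libraries, and the border macrophage sum at 0.2528 CPM in replicate 1.

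For 19 members the log2 change with T3 differed between the RXRgKO-labelled libraries with Xist and those lacking it by the test of that difference. The difference, with minus lacking, was -3.627 for Cd209f, -2.649 for Ms4a7, -2.471 for Adgre1, -2.465 for Cybb, -2.429 for Lyz2, -2.394 for Cd53, -2.196 for Aif1 and -1.98 for Fcrls. It was -1.916 for C1qc, -1.897 for Laptm5, -1.861 for Spi1, -1.688 for Ms4a6d, -1.666 for C1qa, -1.533 for Ptprc and -1.467 for C1qb. The smallest were -1.405 for Cx3cr1, -1.35 for Mpeg1, -1.345 for Tyrobp and -0.9887 for Ctss.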

How the results depend on the processing

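The members called higher with the RXRgKO label ranged from 21 to 26 without T3 and from 13 to 28 with T3 over all alternatives. The count of 13 came with a replicate block on the compared groups only; with a replicate block in the fit of all 16 libraries the counts were 23 with T3, 23 without, 2 for T3 in WT-labelled cells, 0 for T3 in RXRgKO-labelled cells and 0 for the difference in response. For T3 in RXRgKO-labelled cells, where 0 were called, DESeq2 called 1 (P2ry12), limma voom 6 (5 lower), a fit with library set as a term 18 (17 lower), and a fit without the RXRgKO-labelled libraries lacking Xist, added after seeing the data, 14 (13 lower). In the same order, these fits called 1194, 630, 6634 and 793 of all genes. Leaving out each library in turn gave 0 to 2 there: P2ry12 without untreated replicate 3, and Cd209f and Adgre1 without T3 replicate 1. With library set as a term, T3 in WT-labelled cells gave 7 called members (P2ry12 and Cd14 higher, 5 lower) and the difference in response 1 (Cd14). Of 946 values of single called members under the alternatives, 920 kept direction and call, 26 lost the call and 0 changed direction; causes were not tested. Members with few counts in the WT-labelled libraries have fold changes limited by depth.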

Other observations

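Of 30 further microglia and macrophage genes outside the 32 members, 21 were tested. With the RXRgKO label 11 were higher and 1 lower with T3, where 8.10% of all genes were higher and 6.80% lower, and 12 were higher and 0 lower without T3, where 6.17% and 5.16% were. The 1 gene lower with T3 was Folr2, a folate receptor of border macrophages (-0.89, SE 0.26, adjusted p = 0.0283). Folr2 was at 6.5, 5.26, 7.7 and 7.16 CPM in the RXRgKO-labelled libraries with T3, 2.74, 1.16, 2.51 and 1.55 CPM in those without, 13.2, 11.6, 13.4 and 11.2 CPM in the WT-labelled libraries with T3 and 5.2, 3.46, 2.82 and 1.96 CPM in those without. With T3 it was higher than without in both labels, by 1.75 in RXRgKO-labelled cells (SE 0.28, adjusted p = 0.00158) and 1.87 in WT-labelled cells (SE 0.27, adjusted p = 3.2e-04). Siglech and Gpr34, of the same list, had few counts and were not tested. In untreated replicates 1 to 4, Siglech had 7, 0, 5 and 3 counts with the RXRgKO label and 0, 3, 1 and 1 with the WT label. Gpr34 had 8, 5, 3 and 3 counts against 0, 2, 1 and 6. Folr2, Siglech and Gpr34 were chosen after their values were seen.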
